A study of Homo sapiens with 16 samples.

Results

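The TALE genes encode homeodomain proteins that carry a short loop extension within the homeodomain and act as DNA-binding cofactors of HOX proteins. Levels of 9 of them (MEIS1, MEIS2, MEIS3, PKNOX1, PKNOX2, PBX2, PBX3, PBX4 and TGIF1) were followed across the 4 treatment groups of an RNA-seq experiment in SK-N-BE(2)C, a MYCN-amplified human neuroblastoma cell line of the adrenergic type. The 9 genes were taken by their symbols from tables of 27037 gene symbols and 8 of the 9 were among the 15415 genes with enough counts to be tested. Cells were given the vehicle DMSO, retinoic acid (RA, 10 µM), the CDK4/6 inhibitor palbociclib (PB, 1 µM) or both agents (PB+RA) for 5 days, with 4 replicates numbered 1 to 4 in each group. All samples came from this 1 line grown in culture, and no group carried an engineered allele. Libraries held 19.5 to 31.6 M counts. Levels are given as CPM, the counts of a gene scaled to a library total of 1e+06. A gene was called changed where edgeR's quasi-likelihood test gave an adjusted p below 0.05 and its log2 fold change was beyond 0.5 in either direction.

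PBX and MEIS or PKNOX proteins bind each other, and the pair binds DNA together with HOX proteins, which sharpens the choice of target site. MEIS and PKNOX proteins also help to hold PBX proteins in the nucleus. TGIF1 is the odd one out, a repressor that recruits corepressors to SMAD proteins and to retinoid X receptor sites. Retinoic acid is a classical inducer of MEIS, PBX and HOX genes in embryonic tissues and in cultured stem cells, and MEIS proteins are known to act in sympathetic progenitors and in neuroblastoma.

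To show the DNA in front of 3 of the 4 genes called under RA, the 250 bases before the RefSeq transcription start of MEIS1 and PBX3 and before the first listed start of TGIF1 are printed 5′ to 3′ on the strand of the gene (GRCh38.p14). These are chr2:66434875-66435124 on the plus strand for MEIS1, chr9:125747933-125748182 on the plus strand for PBX3 and chr18:3411759-3412008 on the plus strand for TGIF1. Capitals mark matches, on either strand, to the MEIS and TGIF core motif TGACAG and to the retinoid receptor half-site. The half-site was searched as AGGTCA and as its variant GGGTCA, and also with the letters AGTTCA and with the letters GGTTCA.
MEIS1: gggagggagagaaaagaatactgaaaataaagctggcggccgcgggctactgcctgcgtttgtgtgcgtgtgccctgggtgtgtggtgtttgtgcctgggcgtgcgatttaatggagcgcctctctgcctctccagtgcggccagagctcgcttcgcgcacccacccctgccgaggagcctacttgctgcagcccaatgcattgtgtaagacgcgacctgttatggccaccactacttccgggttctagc
PBX3: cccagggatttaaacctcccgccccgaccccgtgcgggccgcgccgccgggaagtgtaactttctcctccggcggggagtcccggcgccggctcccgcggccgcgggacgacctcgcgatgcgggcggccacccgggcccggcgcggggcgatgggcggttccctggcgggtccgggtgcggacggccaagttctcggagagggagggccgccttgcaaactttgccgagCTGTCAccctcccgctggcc
TGIF1: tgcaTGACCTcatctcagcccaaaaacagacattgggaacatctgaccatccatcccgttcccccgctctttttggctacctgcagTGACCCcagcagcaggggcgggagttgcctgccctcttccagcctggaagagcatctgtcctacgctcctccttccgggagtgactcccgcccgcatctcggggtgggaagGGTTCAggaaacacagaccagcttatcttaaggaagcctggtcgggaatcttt
The MEIS1 window held none of these letters, nor did that of PBX2, the other gene called under RA (chr6:32190203-32190452 on the minus strand), which is not printed. The PBX3 window held 1 TGACAG match, 20 to 15 bases before the start, and the TGIF1 window held 3 half-sites. Over the 16 windows listed for 8 of the 9 genes, 3 held TGACAG and 2 held a half-site. These windows are not spread evenly, since TGIF1 had more listed starts than any other gene. Only TGIF1 windows held a half-site, and only TGIF1 and PBX3 windows held TGACAG. The printed TGIF1 window had more half-sites than its other windows, most of which had none. Among 35116 promoter windows of the same length, 13.0% held TGACAG and 33.8% held at least 1 of the half-sites. A match in letters is a description of the window and says nothing of binding in these cells.

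The levels of the 9 genes covered a wide range in untreated cells. PBX3 and MEIS3 had the highest levels per length in DMSO, at 16.1 ± 1.2 and 13.6 ± 3.6 CPM per kb of exon (SD, n = 4). MEIS2 (4.78 ± 2.6 CPM per kb), PKNOX1 (3.62 ± 0.49 CPM per kb) and MEIS1 (2.73 ± 0.31 CPM per kb) formed a middle range. In DMSO the MEIS2 samples overlapped with those of PKNOX1 and of MEIS1, while the PKNOX1 samples all lay above those of MEIS1 per kb. In CPM, without division by length, MEIS1 (29.9 ± 3.4) and PKNOX1 (27.6 ± 3.7) overlapped in DMSO. TGIF1 followed at 1.37 ± 0.29 CPM per kb, and PBX4 (0.636 ± 0.16 CPM per kb) and PBX2 (0.342 ± 0.068 CPM per kb) were the lowest of the 8 tested genes. PKNOX2 had 0 to 3 counts in each of the 16 samples, which is within the limit of 3 counts that a count of 0 allows, so no difference between groups was detectable for it at this depth.

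**Figure D1:**
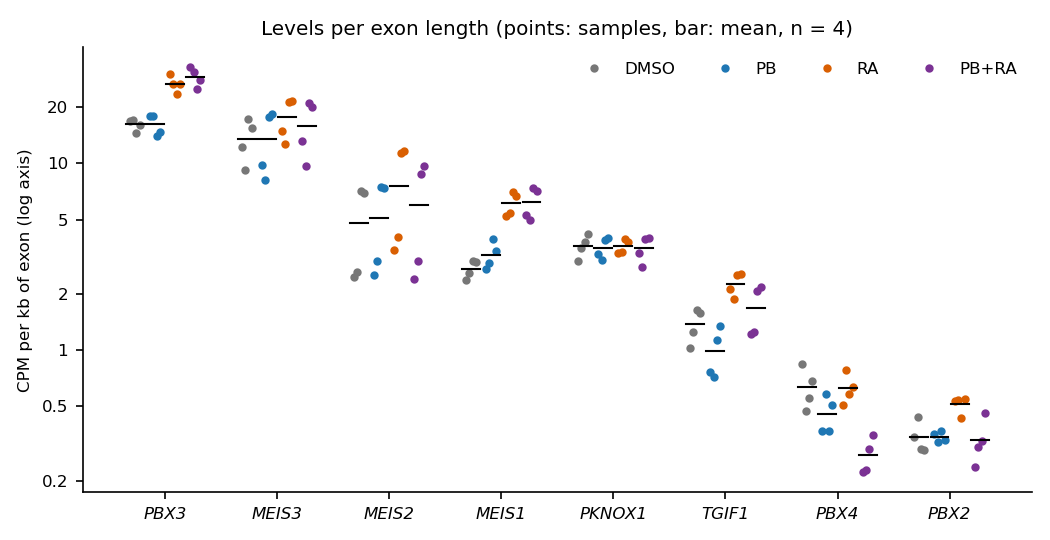
CPM per kb of exon (log axis) of the 8 tested TALE genes, ordered from the highest to the lowest mean over all samples. Points are the 16 samples coloured by group and bars are the means of 4 replicates. PBX3 and MEIS3 lie highest, PBX4 and PBX2 lie below 1 CPM per kb in all samples, and the MEIS2 samples split into a lower and an upper pair within each group.

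RA raised 4 of the 8 tested TALE genes against DMSO and lowered 0 of them. The 4 were MEIS1, PBX3, TGIF1 and PBX2, against 10.8% of all genes tested that were called higher under RA and 2.54% that were called lower (13.3% together). With the replicate number as a block MEIS2 joined them, which made 5. The median log2 fold change of the 8 genes under RA was 0.62, beside 0.01 over all genes tested. PB alone changed 0 of the 8 by edgeR, DESeq2 or limma-voom, although 28.2% of all genes were called (16.9% higher and 11.3% lower), and 1 of the 8, PBX4, had an unadjusted p below 0.05 in edgeR. PB+RA raised 2 (MEIS1 and PBX3) and lowered 1 (PBX4), against 24.0% and 17.9% of all genes (41.9% in both directions). These comparisons share the DMSO samples. Because whole cultures were sequenced, fewer cells of a type and less RNA per cell cannot be told apart in any of these values.

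**Figure D2:**
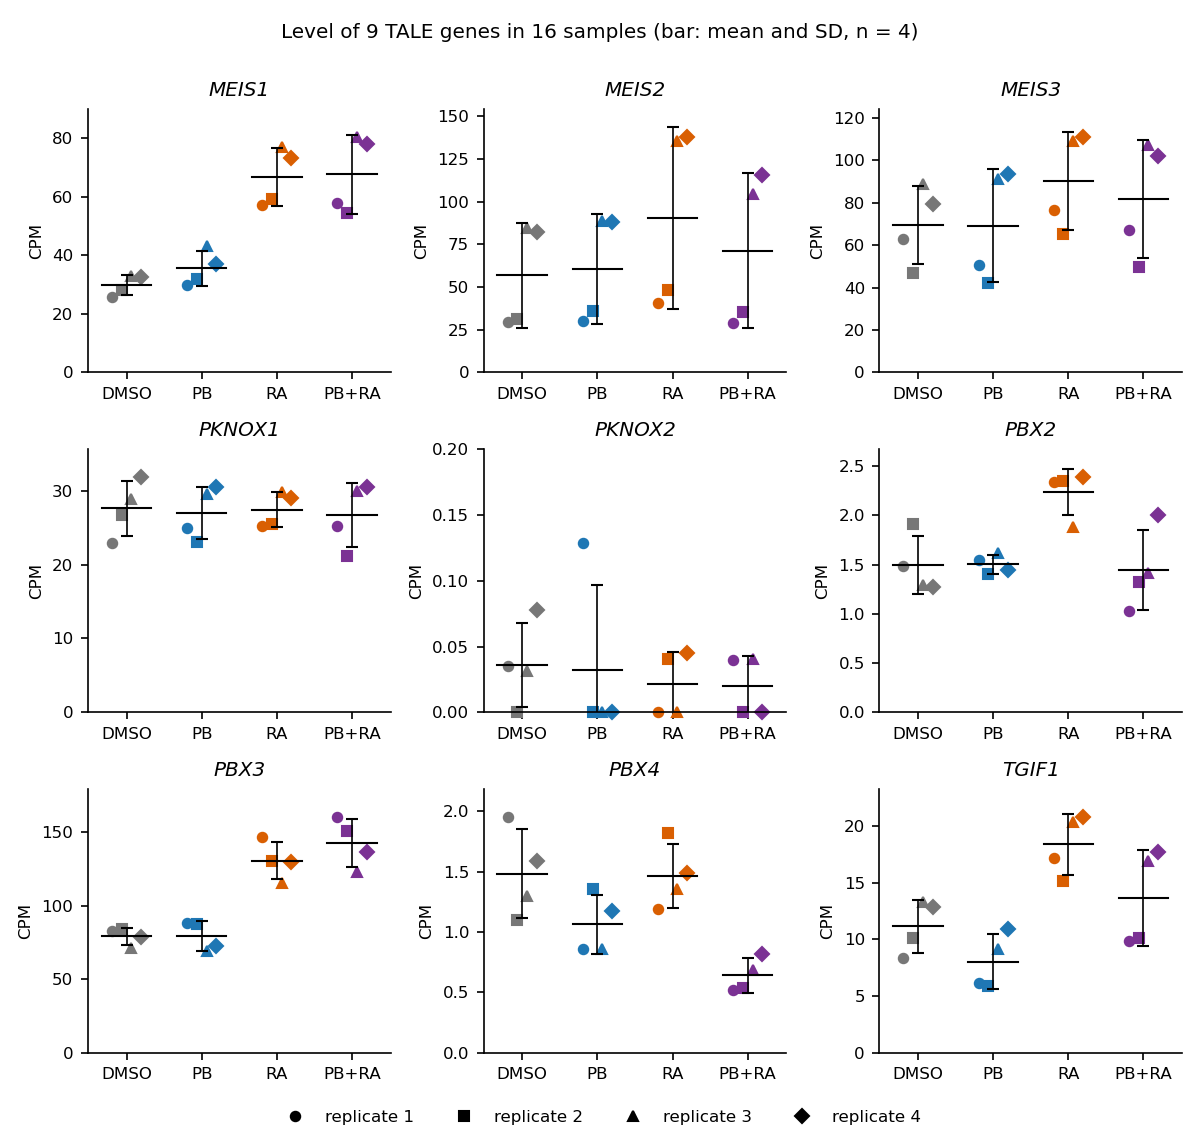
CPM (linear axis from 0) of each of the 9 TALE genes in the 16 samples. Points are samples, with the shape giving the replicate number and the colour the group, and the bar and whiskers give the mean and SD of 4 replicates. MEIS1 and PBX3 were higher in every RA and PB+RA sample than in any DMSO or PB sample, PKNOX1 was level, and PBX4 was lowest in PB+RA.

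MEIS1, a cofactor that keeps progenitor cells in an immature state in blood and several other tissues, showed the largest rise of the 9 genes. The gene lies on the plus strand at chr2:66660584-66801001 (GRCh37). Its level in replicates 1 to 4 was 25.9, 28.3, 32.8 and 32.5 CPM in DMSO and 57.2, 59.3, 76.9 and 73.4 CPM in RA. With PB it was 29.9, 31.8, 43.2 and 37.1 CPM, and with PB+RA it was 57.8, 54.4, 80.5 and 78.1 CPM. All 8 samples that received RA lay above all 8 that did not, and DMSO and PB samples overlapped. RA raised MEIS1 2.22-fold (log2 1.15 ± 0.15 SE, adjusted p = 3.76e-05) and PB+RA raised it equally 2.22-fold (log2 1.15 ± 0.15, adjusted p = 5.31e-06). Addition of PB to RA left a log2 difference of 0.00 ± 0.15, with a 95% interval from −0.29 to 0.29. For PB against DMSO the log2 fold change was 0.25 (95% interval −0.05 to 0.55, adjusted p = 0.175). Within replicate numbers PB was above DMSO in 4 of 4, and with the replicate block this difference passed the adjusted p but not the fold minimum (log2 0.25 ± 0.06, adjusted p = 0.000868). RA lay above PB by a log2 of 0.90 (adjusted p = 0.000132), and a difference between RA and PB+RA was not detected with or without the block (adjusted p = 0.948 and 0.994). The transcripts MEIS1-AS3 and MEIS1-AS2, which overlap MEIS1 on the opposite strand, were at means of 0.709 and 0.117 CPM over the 16 samples, while MEIS1 itself was at 25.9 CPM or more. The strand setting of the counts was not stated in the sources used here.

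MEIS2, whose product is needed by some neuroblastoma lines to survive, had the largest spread between replicates. The gene lies on the minus strand at chr15:37181405-37393500 (GRCh37). Its level in replicates 1 to 4 was 29.3, 31.2, 84.5 and 82.4 CPM in DMSO and 40.7, 48.0, 135 and 138 CPM in RA. With PB it was 30.0, 35.7, 88.4 and 88.2 CPM, and with PB+RA it was 28.6, 35.5, 104 and 116 CPM. Replicates 3 and 4 were thus far above replicates 1 and 2 in all 4 groups, by 2.76-fold in DMSO, 3.08-fold in RA, 2.69-fold in PB and 3.44-fold in PB+RA. Averaged over groups this gap was a log2 of 1.57, and only 77 of the 15415 genes tested had a larger one in either direction, while the median size of the gap over all genes was 0.13. The labels do not say what sets replicates 3 and 4 apart from replicates 1 and 2, and the cause was not tested.

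With this spread, the rise of MEIS2 under RA was not called when the replicates were pooled (log2 0.66 ± 0.59, adjusted p = 0.419). Within replicate numbers the level was higher under RA in 4 of 4, as log2 ratios of RA over DMSO of 0.48, 0.62, 0.68 and 0.74. In the fit with the replicate number as a block the rise was called (log2 0.63 ± 0.06, adjusted p = 6.74e-08), as it was with GC correction added to the block (log2 0.59, adjusted p = 6.90e-09), in replicates 1 and 2 alone (log2 0.55, adjusted p = 0.0105) and in replicates 3 and 4 alone (log2 0.65, adjusted p = 5.91e-08). Against PB, too, RA was called higher only with the block (log2 0.53, adjusted p = 3.19e-07), with block and GC correction together, or in replicates 3 and 4. Under PB+RA the log2 ratios over DMSO were −0.03, 0.19, 0.31 and 0.49, and no call was made with the block (log2 0.23, adjusted p = 0.00262, below the fold minimum). With the block PB+RA also lay below RA by a log2 of −0.40 (adjusted p = 9.52e-06), again short of the fold minimum.

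**Figure D3:**
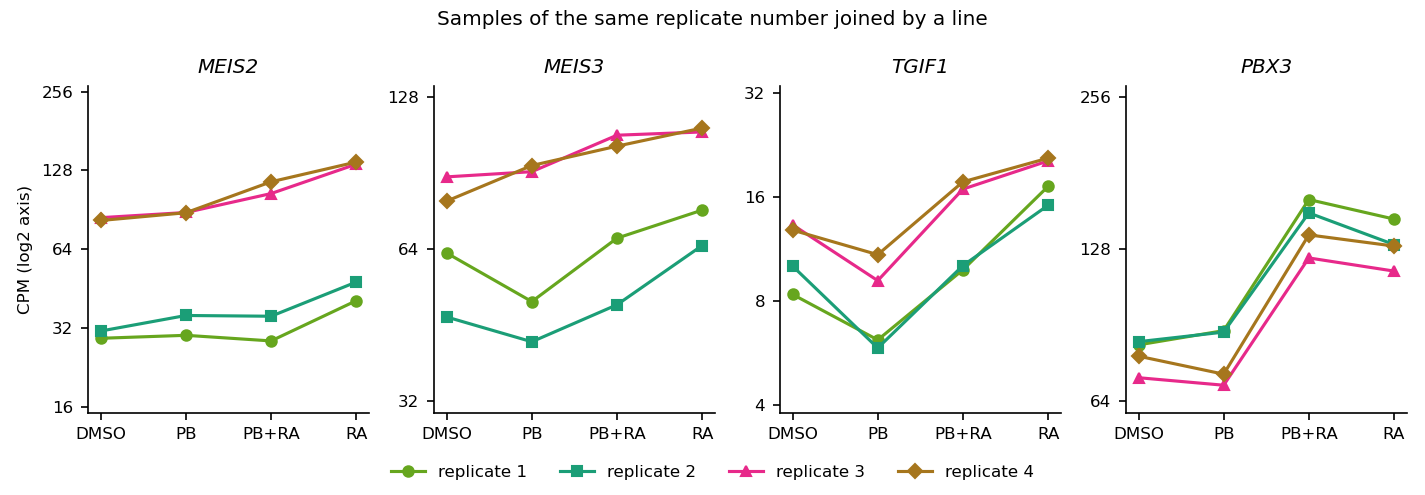
CPM (log2 axis) of MEIS2, MEIS3, TGIF1 and PBX3 in the 4 groups, with samples of the same replicate number joined. For MEIS2 the lines of replicates 3 and 4 run 2.69-fold to 3.44-fold above those of replicates 1 and 2 and are nearly parallel to them. TGIF1 dips in PB for each replicate number, and PBX3 steps up in both groups that received RA.

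MEIS3, a less studied paralog, showed a smaller gap of the same sign between replicate sets (log2 0.78, exceeded by 548 genes). It lies on the minus strand at chr19:47906381-47922784 (GRCh37). Levels ranged from 47.0 to 88.9 CPM in DMSO, from 65.1 to 111 CPM with RA, from 42.0 to 93.6 CPM with PB and from 49.7 to 107 CPM with both, so all groups overlapped. RA over DMSO gave log2 ratios of 0.28, 0.47, 0.29 and 0.48 within replicate numbers, and MEIS3 was not called in any comparison with DMSO (RA log2 0.37 ± 0.31, adjusted p = 0.383). With the replicate block the rise under RA had an adjusted p of 0.000288 at the same log2 of 0.37, below the fold minimum. Per kb of merged exon, MEIS3 nonetheless held the largest share of the summed MEIS levels, with 65.0% ± 4.7 in DMSO and 57.1% ± 4.4 in RA (SD, n = 4). These shares depend on the lengths used, 5.13 kb for MEIS3, 11.9 kb for MEIS2 and 10.9 kb for MEIS1. In CPM the DMSO means were closer, at 69.6 for MEIS3, 56.8 for MEIS2 and 29.9 for MEIS1. The share of MEIS1 was 13.6% ± 3.2 in DMSO, 20.3% ± 3.6 in RA and 23.2% ± 4.3 in PB+RA.

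PKNOX1 and PKNOX2, also known as PREP proteins, compete with MEIS proteins for PBX. PKNOX1 (chr21:44394620-44454041, GRCh37) was the steadiest of the 9 genes. It was at 27.6 ± 3.74 CPM in DMSO, 27.4 ± 2.38 CPM in RA, 27.0 ± 3.55 CPM in PB and 26.7 ± 4.37 CPM in PB+RA (SD, n = 4). Its log2 fold change was −0.03 (95% interval −0.27 to 0.21) for PB, −0.02 (−0.26 to 0.23) for RA and −0.08 (−0.32 to 0.17) for PB+RA. No adjacent groups in its order of levels differed beyond their spread. PKNOX2 (chr11:125034583-125303285, GRCh37) was all but undetected, as given above.

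PBX3, a partner of both HOX and MEIS proteins, was the highest per length of PBX2, PBX3 and PBX4. The gene lies at chr9:128509624-128729656 (GRCh37) on the plus strand. Its level in replicates 1 to 4 was 82.8, 84.0, 71.3 and 78.7 CPM in DMSO and 147, 131, 116 and 130 CPM in RA. With PB it was 88.3, 87.8, 68.9 and 72.5 CPM, and with PB+RA it was 160, 151, 123 and 137 CPM. As for MEIS1, the 8 samples with RA all lay above the 8 without it. RA raised PBX3 1.64-fold (log2 0.72 ± 0.10, adjusted p = 4.51e-05) and PB+RA raised it 1.77-fold (log2 0.82 ± 0.10, adjusted p = 1.44e-06). PB alone gave a log2 fold change of 0.00 (95% interval −0.19 to 0.20), and PB+RA differed from RA by 0.11 (−0.08 to 0.30, adjusted p = 0.371; 0.10 and 0.0464 with the replicate block).

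PBX4, the least studied PBX protein, was lowest with both agents together. It lies on the minus strand at chr19:19672516-19729502 (GRCh37) and had only 12 to 55 counts per sample. Its level in replicates 1 to 4 was 1.95, 1.10, 1.30 and 1.59 CPM in DMSO, 1.19, 1.82, 1.36 and 1.49 CPM in RA, and 0.858, 1.35, 0.856 and 1.18 CPM in PB. With PB+RA it was 0.517, 0.531, 0.687 and 0.820 CPM, below every other sample. PB+RA lowered it to 0.421 of DMSO (log2 −1.25 ± 0.24, adjusted p = 0.000236) and to 0.430 of RA (log2 −1.22 ± 0.24, adjusted p = 0.000478). Its log2 fold change was −0.03 (95% interval −0.46 to 0.40) for RA and −0.48 (−0.93 to −0.04, adjusted p = 0.0844) for PB. PB+RA was also called lower than PB (log2 −0.76 ± 0.25, adjusted p = 0.0256), but that call was lost without PB replicate 2 (−0.63), PB replicate 4 (−0.71), PB+RA replicate 1 (−0.68) or PB+RA replicate 2 (−0.69), and in 9 of the alternative settings in all. The log2 fold change for PB was called without DMSO replicate 2 (−0.62) or PB replicate 2 (−0.65).

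PBX2, a broadly expressed PBX protein, had 26 to 58 counts per sample. It lies on the minus strand at chr6:32152510-32157979 (GRCh37). Its counts are uncertain beyond their low number, since the near-identical pseudogene PBX2P1 was at a mean of 0.639 CPM in the same table and reads could be split between the loci. The PBX2 level in replicates 1 to 4 was 1.49, 1.92, 1.30 and 1.28 CPM in DMSO and 2.33, 2.35, 1.88 and 2.39 CPM in RA. With PB it was 1.54, 1.40, 1.62 and 1.45 CPM, and with PB+RA it was 1.03, 1.33, 1.41 and 2.00 CPM. RA samples were highest, although the lowest of them lay below the highest DMSO sample. RA raised PBX2 1.49-fold (log2 0.57 ± 0.19, adjusted p = 0.0259), a call that was lost without DMSO replicate 1 (0.55), 3 (0.49) or 4 (0.50) or without RA replicate 1 (0.54), 2 (0.54) or 4 (0.52), and in 9 of the alternative settings in all. PB+RA lay below RA (log2 −0.66 ± 0.19, adjusted p = 0.00818), and this call held without any single library, with a range from −0.83 to −0.55, but not in replicates 3 and 4 alone (−0.34).

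TGIF1, the SMAD and retinoid X receptor corepressor, rose under RA, and under PB its level lay below that of DMSO without passing the test. It lies on the plus strand at chr18:3411606-3459976 (GRCh37). Its level in replicates 1 to 4 was 8.37, 10.1, 13.3 and 12.9 CPM in DMSO and 17.2, 15.2, 20.4 and 20.8 CPM in RA. With PB it was 6.18, 5.85, 9.17 and 10.9 CPM, and with PB+RA it was 9.86, 10.1, 16.9 and 17.7 CPM. RA samples lay above all DMSO and PB samples, while DMSO overlapped with both PB and PB+RA. RA raised TGIF1 1.64-fold over DMSO (log2 0.71 ± 0.23, adjusted p = 0.0254), and PB+RA raised it 1.66-fold over PB (log2 0.73 ± 0.24, adjusted p = 0.0237). The first call was lost without DMSO replicate 1 (0.57) or 2 (0.66) or RA replicate 3 (0.63) or 4 (0.62), and the second without PB replicate 1 (0.63) or 2 (0.61) or PB+RA replicate 3 (0.61) or 4 (0.60). With the replicate block both were called, at log2 values of 0.72 (adjusted p = 2.92e-06) and 0.73 (adjusted p = 7.20e-06).

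For PB against DMSO the TGIF1 log2 fold change was −0.47 ± 0.24 (adjusted p = 0.104), and it was negative within each of the 4 replicate numbers (−0.44, −0.79, −0.54 and −0.24). That comparison was called without DMSO replicate 1 (−0.62) or PB replicate 4 (−0.69), and in replicates 1 and 2 alone (−0.63). PB+RA against RA gave −0.45 (95% interval −0.90 to −0.00, adjusted p = 0.109), and it was called in replicates 1 and 2 alone (−0.72, adjusted p = 0.00113) but not in replicates 3 and 4 alone (−0.26). With the replicate block PB lay below DMSO by a log2 of −0.48 (adjusted p = 0.000409) and PB+RA lay below RA by −0.48 (adjusted p = 0.000162), both just short of the fold minimum. PB, DMSO, PB+RA and RA followed in this order of mean level, and no adjacent groups were called different with or without the block, but RA lay 2.27-fold above PB (log2 1.18 ± 0.24, adjusted p = 0.000618). As with MEIS2 and MEIS3, TGIF1 was higher in replicates 3 and 4 than in replicates 1 and 2 (log2 0.59, exceeded by 969 genes).

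**Figure D4:**
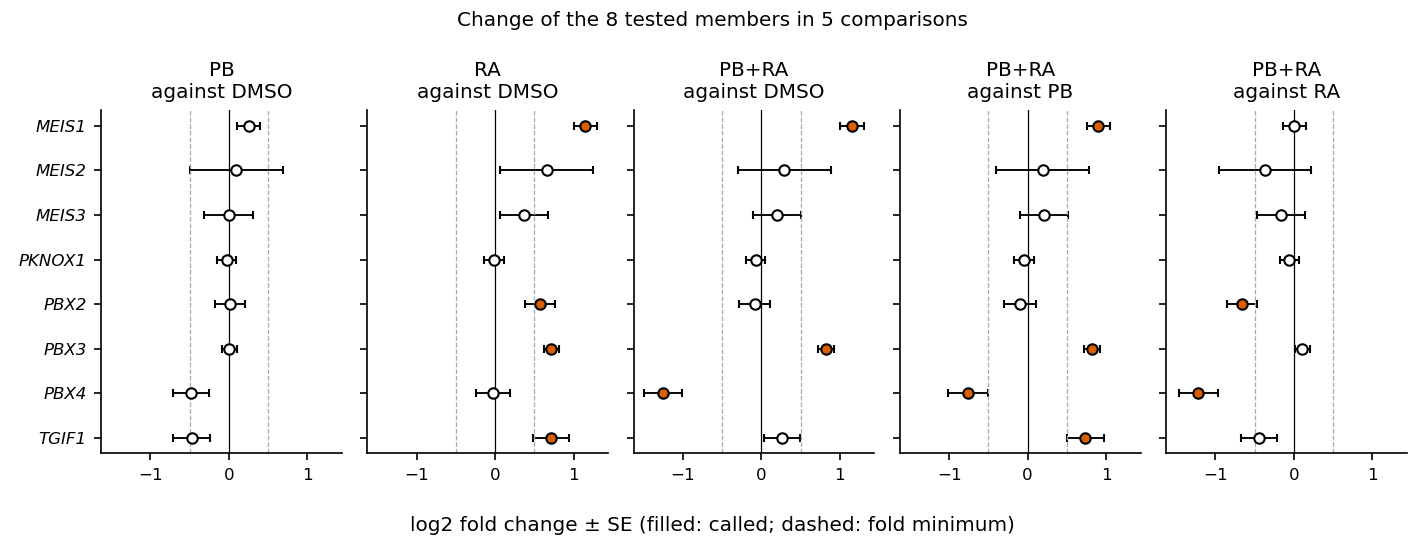
log2 fold change with SE of the 8 tested TALE genes in 5 comparisons from the fit of all 16 samples. Filled points were called and dashed lines mark the fold minimum of 0.5. No point is filled for PB against DMSO, 4 are filled on the right for RA against DMSO, and the 2 filled points for PB+RA against RA, PBX2 and PBX4, lie on the left.

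Between the groups that shared an agent, PB+RA against PB called 3 of the 8 genes higher (MEIS1, PBX3 and TGIF1, background 9.02%) and 1 lower (PBX4, background 7.27%), with 16.3% of all genes called. PB+RA against RA called 0 higher and 2 lower (PBX2 and PBX4), against 14.9% and 14.1% of all genes, or 29.0% in both directions. RA against PB, used here only to order the groups, called 4 higher (MEIS1, PBX2, PBX3 and TGIF1, of which PBX2 was lost without RA replicate 4 at 0.53; background 13.8%) and 0 lower (background 12.3%), with 26.0% of all genes called in both directions. The question whether both agents add up on each gene was put to the interaction, the log2 fold change of PB+RA minus the sum of both single changes. It was called for 0 of the 8 genes by edgeR, DESeq2 or limma-voom, against 3.44% of all genes by edgeR (0.415% higher and 3.02% lower). At an unadjusted p below 0.05 edgeR gave 2 of them, PBX2 (−0.67, adjusted p = 0.193) and PBX4 (−0.73, adjusted p = 0.254), and DESeq2 gave 1. For MEIS1 the interaction was −0.25 ± 0.21 and for PBX3 it was 0.10 ± 0.14. With the replicate block the interaction passed the adjusted p, but not the fold minimum, for MEIS1 (−0.25 ± 0.08, adjusted p = 0.0329) and MEIS2 (−0.50 ± 0.09, adjusted p = 0.000484).

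Further TALE genes are given singly, with no count over them. TGIF2, the paralog of TGIF1, fell by 0.80 on the log2 scale under PB (adjusted p = 0.00127) and by 0.84 under PB+RA (adjusted p = 0.000531). The Iroquois genes IRX3, IRX5 and IRX6, patterning factors of the nervous system, had log2 fold changes of −1.32, −3.16 and −2.31 under PB+RA. Each was called lower, as were 17.9% of all genes. IRX3 and IRX5 had only 13 to 39 and 19 to 42 counts per sample with PB+RA. IRX6 also fell under RA (by 1.44) but was at 0.00 under PB, IRX5 fell under PB (by 1.93) and RA (by 0.56), and IRX3 rose under RA (0.90) and fell under PB (by 1.58).

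The DNA-binding partners of MEIS and PBX proteins, the HOX genes, were represented by 33 of 39 symbols, of which 15 were tested. RA raised 9 of the 15 and lowered 0 (median log2 0.76), PB raised 0 and lowered 2 (median 0.15), and PB+RA raised 9 and lowered 1 (median 0.77). Over all genes, RA raised 10.8% and lowered 2.54%, PB raised 16.9% and lowered 11.3%, and PB+RA raised 24.0% and lowered 17.9%, so that the HOX genes lowered by PB were near the background share. HOXD9 rose under RA (log2 1.10 ± 0.10) and PB+RA (1.48 ± 0.10), HOXD1 rose by 0.95 and 2.15, and HOXD10 by 1.46 and 1.88. HOXC11 was lowered by PB (log2 −1.35) and by PB+RA (−1.28). HOXD11, among those raised by RA, had means of 0.341 CPM in DMSO and 1.93 CPM in RA. The count filter keeps a gene that is high enough in 1 group, so HOXD11 may have been testable only through its RA samples. Among 12 proteins that bind TGIF1 or PBX, RA raised 3 and lowered 0, PB raised 0 and lowered 3, and PB+RA raised 3 and lowered 3. The counts under PB+RA were near the 24.0% and 17.9% of all genes. They included SMAD3, the TGF-β signal transducer (log2 1.47 under RA and 1.36 under PB+RA), PBXIP1, a PBX-binding inhibitor (0.95 and 0.94), and the retinoid X receptor gene RXRA, which fell under PB (by 1.08) and PB+RA (by 0.88).

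**Figure D5:**
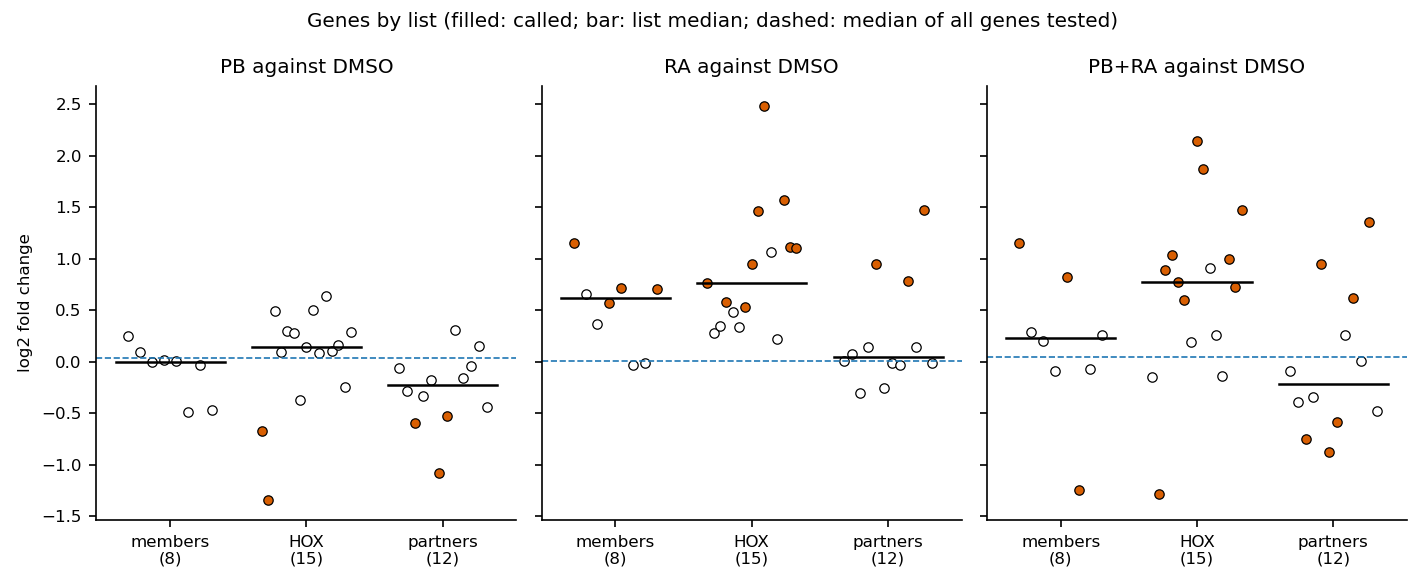
log2 fold changes against DMSO of the 8 tested members of the 9 TALE genes, 15 HOX genes and 12 partner proteins of TGIF1 and PBX. Points are genes, filled where called, bars are list medians and the dashed line is the median of all genes tested. HOX and TALE medians lie above the dashed line under RA.

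The genes with the pattern most like each responding TALE gene were found by the root mean square difference in centred log2 CPM over the 16 samples, among tested genes with a mean of 10 CPM or more. For MEIS1 these were DENND2A (0.13), MYADM (0.16) and SOX4 (0.16), beside a median of 0.61 over the 10001 genes compared. PBX3 was closest to PANX1 (0.12) and near ALDH3A2 (0.13). TGIF1 was closest to ST6GALNAC3 (0.15), FBXL7 (0.18) and ASAP3 (0.19). The low-count genes had looser neighbours, namely ATXN1 (0.19), RNF157 (0.20) and YTHDC2 (0.20) for PBX2 and BMP2K (0.23), RADIL (0.25) and RMI2 (0.25) for PBX4.

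Both agents had acted on the cultures. RA raised 8 of 9 tested retinoid response genes (10.8% of all genes) and PB lowered 8 of 8 proliferation genes (11.3% of all genes). Among the retinoid response genes, CYP26A1 had means of 0.109 CPM in DMSO and 74.6 CPM in RA, so it may have been testable only through samples with RA. The adrenergic markers PHOX2A, HAND2 and DBH were present in all samples. Of 9 tested adrenergic markers, RA raised 2 and lowered 1 (10.8% and 2.54% of all genes). PB raised 4 and lowered 0 (16.9% and 11.3%), and PB+RA raised 3 and lowered 0 (24.0% and 17.9%). The marker lowered by RA was GATA3 (log2 −0.89), which PB raised (0.79). SOX10, the defining Schwann marker, had at most 1 count. The summed mesenchymal markers (7 of 8 in the table) were at 1121 to 1381 CPM in DMSO, 1894 to 2352 CPM in RA, 950 to 1107 CPM in PB and 1159 to 1596 CPM in PB+RA. RA raised 3 of the 7 and lowered 0 (10.8% and 2.54% of all genes). PB raised 1 and lowered 4 (16.9% and 11.3%), and PB+RA raised 1 and lowered 3 (24.0% and 17.9%). Within the sum, mean FN1 was 175 CPM in DMSO and 733 CPM in RA. VIM (862 and 1058 CPM), SNAI2, TWIST1 and CD44 were not called under RA. Between replicates 1 and 2 and replicates 3 and 4, these sums were 1121 to 1180 and 1348 to 1381 CPM in DMSO and 1894 to 1906 and 2055 to 2352 CPM in RA, but 961 to 1107 and 950 to 954 CPM in PB, and they overlapped in PB+RA. The summed levels of 9 adrenergic markers were 5411 to 6095 CPM in replicates 1 and 2 of DMSO and 5222 to 5243 CPM in replicates 3 and 4, and they were lower in replicates 3 and 4 in the other 3 groups too. The mesenchymal sum and MEIS1 were thus both higher under RA than in DMSO. With PB+RA mean MEIS1 was 67.7 CPM, beside 66.7 CPM in RA, while the mesenchymal sum overlapped that of DMSO. Within each group, the adrenergic sum was lower in replicates 3 and 4, where MEIS2 was higher. This did not hold between groups. In PB replicates 3 and 4 the adrenergic sum was 7951 to 8023 CPM and mean MEIS2 was 88.3 CPM. In DMSO replicates 1 and 2 they were 5411 to 6095 CPM and 30.2 CPM. CHGA was the largest part of the adrenergic sum, with means of 1706 CPM in DMSO and 3875 CPM in PB. HAND2 (790 and 823 CPM) and PHOX2A (881 and 956 CPM) were not called under PB. The part of these sums in the MEIS1 and MEIS2 results was not tested.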

How the data were processed

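RNA-seq was analysed for 16 samples (4 groups of 4), grouped by their titles. Per the labels, the authors trimmed reads with Trim Galore 0.6.4 and aligned them to hg19 with STAR 2.6.1d. The deposited counts are STAR's raw read counts per gene symbol, and the deposited CPM are the same counts scaled by the authors to a total of 1e+06 per sample. A deposited table of the authors' own comparisons (DESeq2 1.32.0) was not used. Annotation release and strand setting were not given in the sources used here.

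The members and gene lists were chosen with earlier results of these data known. Genes were kept by filterByExpr, scaled by TMM and fitted with edgeR 4.0.16 (robust quasi-likelihood, R 4.3.3) on all 16 samples, 1 coefficient per group. P-values were adjusted by Benjamini-Hochberg over the genes tested, 15415 in this fit. Every adjusted p comes from this edgeR test, in this fit unless the block, GC correction or a replicate set is named beside it. SE was taken as the size of the log2 fold change over the root of the F statistic, and 95% intervals are 1.96 SE. DESeq2 1.42.0 and limma-voom (limma 3.58.1), other filters and scaling, GC and length offsets, a replicate block, single libraries left out, both replicate sets and other fold minima were tried as alternatives, and the fit was tested on simulated data. Gene coordinates and exon lengths came from GENCODE models on GRCh37, found for 95.2% of tested genes. An exon length is that of all exons of a gene's listed transcripts, merged, and not that of the transcripts present in these cells.

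All 9 genes are described. For each called against DMSO, 3 genes of like pattern are named, and for each list at most 4 called genes (mean CPM 1 or more) by size of change under PB+RA. The markers PHOX2A, HAND2 and SOX10 and the gene HOXD11 are named outside this rule, after their values were seen. Some genes that the lists or the rule would name are not reported here, and list counts and sums leave them out. Samples of the same replicate number deviated together from their group means (r from 0.330 to 0.573 in all 24 pairs). Different numbers from the same replicate set did so too (r from 0.155 to 0.447), and these ranges overlap. Numbers from different sets deviated in opposite directions (r from −0.492 to −0.236). Deviations from a group mean cancel out within the group, so these negative values largely follow from the positive ones within sets. The positive r within sets thus separates the replicate sets, but the numbers within a set less so. The replicate block uses the numbers as given in the titles. No libraries agreed within sampling noise. The methods describe biological replicates as different passages, so p-values measure the spread between passages of 1 line. The limit of 3 counts covers counting error only, while the 95% intervals come from the edgeR fit and include the spread between replicates.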

Additional observations from a re-analysis of the deposited data

Results flagged for a closer look

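PBX2 in RA replicate 3, at 1.88 CPM, lay below the other 3 RA samples, which were close together. In counts this was 50 beside 57, 58 and 53, a small gap at such low counts. PKNOX2 in PB replicate 1, at 0.129 CPM, lay above the other 3 PB samples, which held 0 counts. The PKNOX2 value is 3 counts. Of 36 gene and group combinations examined for such a sample, chance alone would single out about 1 in 20.

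For IRX6, a TALE gene outside the 9, the effect of RA differed between cells with and without PB. The interaction was −0.87 on the log2 scale (edgeR, adjusted p = 0.0151; 7.01e-05 with the replicate block). RA lowered IRX6 from 19.9 to 7.38 CPM without PB and from 19.9 to 4.08 CPM with it.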

How the results depend on the processing

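With the replicate number as a block, MEIS2 was called under RA against both DMSO and PB, which brought each count to 5, and no other call of the 8 genes changed. Leaving out 1 library at a time gave 0 to 1 called genes for PB (0 with all libraries), 2 to 4 for RA (4), 3 for PB+RA (3), 2 to 4 for PB+RA against PB (4), 2 for PB+RA against RA (2), 3 to 4 for RA against PB (4) and 0 for the interaction. GC and length correction changed no call, and with the block added it changed the same calls as the block. Without a filter on low counts they were 2 for RA and 2 for PB+RA against PB. A fold minimum of 1 left 1 for RA, 0 for PB+RA against PB, 1 for PB+RA against RA and 1 for RA against PB. Replicates 1 and 2 alone gave 1 for PB, replicates 3 and 4 alone gave 1 for PB+RA against RA, and a fit of only the groups compared gave 2 for PB+RA against PB. The cause was not tested. MEIS1, PBX3 and PBX4 were called under PB+RA in each alternative except that PBX3 fell below the fold minimum of 1. No called value changed sign. Of 1616 values of single genes under an alternative, 43 lost a call and 14 gained one. PBX2 and PBX4, with 12 to 58 counts, and PKNOX2, with at most 3, are limited by depth.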
